A study of Mus musculus with 4 samples.

Results

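Atrial and ventricular cardiomyocytes use different members of the same contractile and regulatory gene families, and each chamber also has its own transcription factors and secreted peptides. Whole heart RNA holds both sets of transcripts side by side. The genes followed here were 9 of the 23337 gene symbols of the deposited tables. They comprised 6 atrial genes (*Myl7*, *Myl4*, *Sln*, *Dkk3*, *Bmp10* and *Nr2f2*) and 3 ventricular genes (*Myl2*, *Irx4* and *Hey2*), listed by name and chosen by their normalised read counts in these same 4 libraries, which were known to tell the pools apart. Their levels and ratios are therefore given as a description, without a test.

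The study compared PIMT fl/fl control mice with csPIMT-/- mice by RNA-seq of heart RNA at 2 and at 6 months of age. PIMT, encoded by *Tgs1*, is a methyltransferase that forms the trimethylguanosine cap of small nuclear RNAs and binds nuclear receptor coactivators. All 4 groups carried PIMT alleles with loxP sites around exons 3 and 4, on the C57BL6/J strain. The csPIMT-/- mice also carried a Cre transgene driven by the α-myosin heavy chain promoter, which is active in cardiomyocytes of both chambers, and lost these exons there, while the other cells of the heart kept them. The labels give the genotype of the controls both as PIMT fl/fl and as WT, and state that no mouse was treated. Each group was 1 library made from the pooled RNA of 5 hearts of male and female mice. With 1 library per group there was no replicate error, and an interval given below covers the counting error of the reads alone.

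The tables hold normalised read counts, in which 1 read was worth between 0.865 and 1.23 units depending on the library, and between 29823073 and 40705783 reads were recovered per library. *Tgs1* itself held 670 reads in the 2-month control, 928 in the 6-month control, 130 in 2-month csPIMT-/- and 156 in 6-month csPIMT-/- hearts. Against the age-matched control, the csPIMT-/- ratio of *Tgs1* was 0.276 (95% interval 0.227 to 0.334) at 2 months and 0.199 (0.167 to 0.236) at 6 months, so both csPIMT-/- libraries were low in the targeted gene.

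The 250 bases in front of the start sites of *Myl7* and *Bmp10* are given here from RefSeq (GRCm38.p6), since *Myl7* is the gene the other atrial genes are set against below and *Bmp10* had the widest span over the libraries. Capitals mark the letters GATAA, read on either strand, which GATA factors recognise, and the serum response factor motif. The *Myl7* window was chr11:5898783-5899032 on the minus strand and the *Bmp10* window chr6:87428744-87428993 on the plus strand.
Myl7: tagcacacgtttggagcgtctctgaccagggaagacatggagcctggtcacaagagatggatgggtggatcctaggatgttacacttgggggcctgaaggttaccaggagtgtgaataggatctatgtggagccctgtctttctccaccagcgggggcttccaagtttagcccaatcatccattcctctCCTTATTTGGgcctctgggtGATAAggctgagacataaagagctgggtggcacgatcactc
Bmp10: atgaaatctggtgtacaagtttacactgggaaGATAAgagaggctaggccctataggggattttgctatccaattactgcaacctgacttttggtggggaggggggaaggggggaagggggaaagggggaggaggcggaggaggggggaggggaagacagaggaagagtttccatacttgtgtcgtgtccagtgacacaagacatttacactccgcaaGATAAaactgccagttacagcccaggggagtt
The *Myl7* window held 1 GATAA beginning 41 bases before the start (position -41) and 1 serum response factor motif at position -61. The *Bmp10* window held 2 GATAA, at positions -218 and -32, and no serum response factor motif. Of 32851 promoter windows of this length, 22.6% held GATAA on either strand and 1.47% the serum response factor motif. The motifs AGGTCA (in 14.0% of all windows), CACGTG (6.02%) and MEF2 (1.69%) were absent from both windows. GGTGT (36.2%) occurred once in the *Bmp10* window, and CANNTG (66.2%) once in the *Myl7* window. CANNTG includes every CACGTG. These are matches of letters and not measured binding sites. A window was on file for 7 of the 9 genes, and that of *Myl4* held none of the 7 motifs.

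The atrial light chains were the most abundant of the 6 atrial genes in every library, and they were far from level between the pools. *Myl7* (ENSMUSG00000020469.8, chr11:5896637-5898782 on GRCm38) encodes the atrial regulatory light chain of myosin, which binds the neck of the myosin head. Its normalised read count was 1045 in the 2-month control, 17299 in the 6-month control, 42908 in 2-month csPIMT-/- and 8084 in 6-month csPIMT-/- hearts. The 2-month control stood far below the other 3 libraries, and the 2-month csPIMT-/- library stood highest. Divided by the age-matched control (the meaning of ratio from here on), csPIMT-/- hearts stood at 41.0 (38.8 to 43.5) at 2 months and 0.467 (0.455 to 0.480) at 6 months. In whole heart RNA, fewer cells of a type and less RNA per cell cannot be told apart, which holds for every chamber gene here.

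*Myl4* (chr11:104550663-104595753) encodes the atrial essential light chain, the partner of *Myl7* on the myosin head. It was counted at 1379 in the 2-month control, 23002 in the 6-month control, 68851 in 2-month csPIMT-/- and 18281 in 6-month csPIMT-/- hearts. The order of the libraries was that of *Myl7*. Its ratio was 49.9 (47.5 to 52.5) at 2 months and 0.795 (0.780 to 0.810) at 6 months. *Myl4* reads amounted to 132%, 133%, 160% and 226% of *Myl7* reads in the 2-month control, the 6-month control, 2-month csPIMT-/- and 6-month csPIMT-/- libraries. The quotient of these genes thus stayed within 1.71-fold over libraries in which each of them alone spanned 41.0-fold and 49.9-fold.

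*Sln* (chr9:53850164-53854560) encodes sarcolipin, a small membrane peptide that inhibits the calcium pump of the sarcoplasmic reticulum and is abundant in atrial muscle. Its normalised read count was 129.8 in the 2-month control, 3996 in the 6-month control, 12629 in 2-month csPIMT-/- and 1684 in 6-month csPIMT-/- hearts. Again the 2-month control was lowest and 2-month csPIMT-/- highest. The ratio was 97.3 (82.8 to 115) at 2 months and 0.421 (0.398 to 0.446) at 6 months.

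The secreted proteins had the same order of libraries with other steps between them. *Dkk3* (chr7:112116017-112159057), which encodes a secreted protein of the Dickkopf family, was counted at 989 in the 2-month control, 5454 in the 6-month control, 5814 in 2-month csPIMT-/- and 2723 in 6-month csPIMT-/- hearts. The 6-month control and 2-month csPIMT-/- libraries lay close together, 1.07-fold apart (1.03 to 1.11). Its ratio was 5.88 (5.51 to 6.28) at 2 months and 0.499 (0.477 to 0.523) at 6 months, the latter with an interval on both sides of 0.5.

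*Bmp10* (chr6:87428994-87437677) encodes a ligand of the bone morphogenetic protein family that in the adult heart is made mainly by the right atrium. Only 6 reads fell on it in the 2-month control, against 7159 in the 6-month control, 6946 in 2-month csPIMT-/- and 1037 in 6-month csPIMT-/- hearts. As normalised read counts these were 5.19, 6296, 8564 and 1079. The gene was therefore close to undetected in the 2-month control and abundant in the other 3 libraries. Its ratio at 2 months was 1649.5, with a wide interval of 757 to 4496 that comes from the 6 control reads, and at 6 months it was 0.171 (0.160 to 0.183). Relative to *Myl7* within the same library, *Bmp10* reads were 0.497% (0.182 to 1.08) in the 2-month control, 36.4% in the 6-month control, 20.0% in 2-month csPIMT-/- and 13.3% in 6-month csPIMT-/- hearts. Relative to *Myl7* too, *Bmp10* was lowest in the 2-month control.

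*Nr2f2* did not follow the other atrial genes. It encodes COUP-TFII, a nuclear receptor that sets atrial identity in cardiomyocytes and is also known from venous and lymphatic endothelium. Its normalised read count (chr7:70351944-70366735) was 427 in the 2-month control, 408 in the 6-month control, 231 in 2-month csPIMT-/- and 263 in 6-month csPIMT-/- hearts. Both controls lay above both csPIMT-/- libraries, and the pools of the same genotype differed by less than counting error (1.05, 0.921 to 1.19, between the controls and 1.14, 0.941 to 1.39, between the csPIMT-/- libraries). The ratio was 0.539 (0.453 to 0.639) at 2 months and 0.645 (0.551 to 0.753) at 6 months. With the trend on GC content subtracted, as described below, these became 0.894 and 1.17, the second in the other direction.

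**Figure D1:**
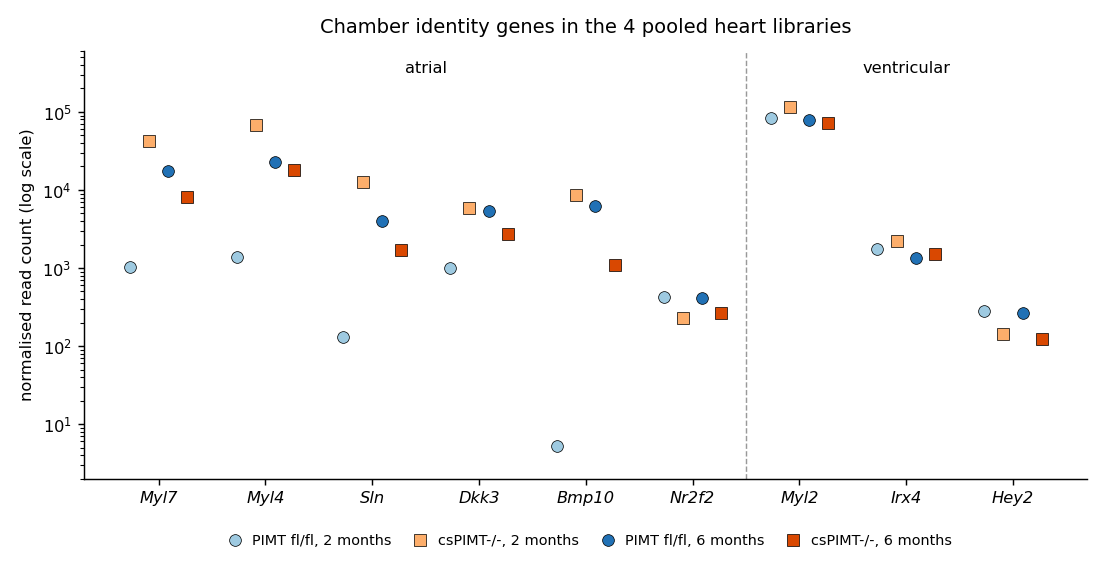
Normalised read count of each chamber gene (log axis) in each of the 4 pooled libraries, with circles for PIMT fl/fl and squares for csPIMT-/- and lighter symbols for 2 months. The 2-month control is lowest for 5 of the 6 atrial genes, down to 5.19 for *Bmp10*, whereas *Myl2* stays between 72191 and 115972.

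The ventricular genes differed far less between the libraries. *Myl2* (chr5:122100951-122113472) encodes the ventricular regulatory light chain, the counterpart of *Myl7*. It was counted at 83678 in the 2-month control, 78008 in the 6-month control, 115972 in 2-month csPIMT-/- and 72191 in 6-month csPIMT-/- hearts. The highest and the lowest of these, both from csPIMT-/- hearts, were 1.61-fold apart. The ratio was 1.39 (1.37 to 1.40) at 2 months and 0.925 (0.916 to 0.935) at 6 months.

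*Irx4* (chr13:73260479-73269608), which encodes a homeobox factor of ventricular cardiomyocytes, was counted at 1734 in the 2-month control, 1343 in the 6-month control, 2217 in 2-month csPIMT-/- and 1505 in 6-month csPIMT-/- hearts. All 4 libraries lay within 1.65-fold. Its ratio was 1.28 (1.20 to 1.36) at 2 months and 1.12 (1.04 to 1.21) at 6 months, and 0.762 and 0.648 with the GC trend subtracted, so its direction depended on that step.

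*Hey2* (chr10:30832359-30842801), a repressor downstream of Notch signalling in the ventricular wall, showed the same arrangement as *Nr2f2*. Its normalised read count was 282 in the 2-month control, 264 in the 6-month control, 144 in 2-month csPIMT-/- and 122 in 6-month csPIMT-/- hearts. Both csPIMT-/- libraries lay below both controls. The ratio was 0.511 (0.410 to 0.634) at 2 months and 0.461 (0.369 to 0.573) at 6 months, and became 0.792 and 0.766 with the GC trend subtracted. Among 15589 genes with at least 10 reads in 1 library, 35.1% had both csPIMT-/- libraries below both controls and 34.6% had both above. *Nr2f2* and *Hey2* were the 2 of 9 chamber genes with both below, and none had both above, which is no more than this background.

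Counted against a 2-fold limit, 5 of the 6 atrial genes had a ratio above 2 and none a ratio below 0.5 at 2 months, and none above 2 and 4 below 0.5 at 6 months. Of all 15152 genes with at least 10 reads at 2 months, 17.3% lay above 2 and 22.5% below 0.5. Of 15218 genes at 6 months, 16.9% lay above 2 and 24.9% below 0.5. The median ratio of the atrial genes was 45.5 at 2 months and 0.483 at 6 months, beside 0.997 and 1.002 over all genes. No ventricular gene was past 2-fold at 2 months, and only *Hey2* was at 6 months. The choice of genes used these values, so nothing is read from the counts.

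The controls of both ages differed from each other in the same genes. From 2 to 6 months, 5 of the 6 atrial genes were more than 2-fold higher in the control pools, where 9.01% of 15132 genes were. *Myl7* was 16.6-fold (15.6 to 17.5), *Myl4* 16.7-fold (15.9 to 17.5), *Sln* 30.8-fold (26.2 to 36.5), *Dkk3* 5.51-fold and *Bmp10* 1213-fold (557 to 3306) higher, while *Nr2f2* was at 0.955 (0.839 to 1.09). In csPIMT-/- hearts the same 5 genes went the other way and were more than 2-fold lower at 6 months, where 8.2% of 15057 genes were. *Bmp10* had a 6-month over 2-month ratio of 0.126, *Sln* of 0.133, *Myl7* of 0.188, *Myl4* of 0.266 and *Dkk3* of 0.468. Each group is 1 pool, so age and pool cannot be told apart. The ventricular genes lay between 0.774 and 0.935 in the controls and between 0.622 and 0.844 in csPIMT-/- hearts.

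When the 2-month control was left out and the 6-month control served for both csPIMT-/- libraries, the atrial differences shrank. In 2-month csPIMT-/- hearts, 3 of 6 atrial genes then lay above 2, where 14.8% of 15171 genes did. These were *Sln* at 3.16 (3.05 to 3.27), *Myl4* at 2.99 and *Myl7* at 2.48, whereas *Bmp10* was at 1.36, *Dkk3* at 1.07 and *Nr2f2* at 0.565. The ventricular genes gave 1.49 for *Myl2*, 1.65 for *Irx4* and 0.547 for *Hey2*. Set against the 2-month control, the 6-month csPIMT-/- library had 5 of 6 atrial genes above 2 (19.0% of 15209 genes), from 2.75 for *Dkk3* to 208 for *Bmp10*. For 5 of 6 atrial genes the side of 1 on which the 6-month ratio lay therefore depended on the control used. *Nr2f2* lay below 1 with either control (0.645 and 0.616). These ratios share their libraries with those above and are no separate evidence.

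**Figure D2:**
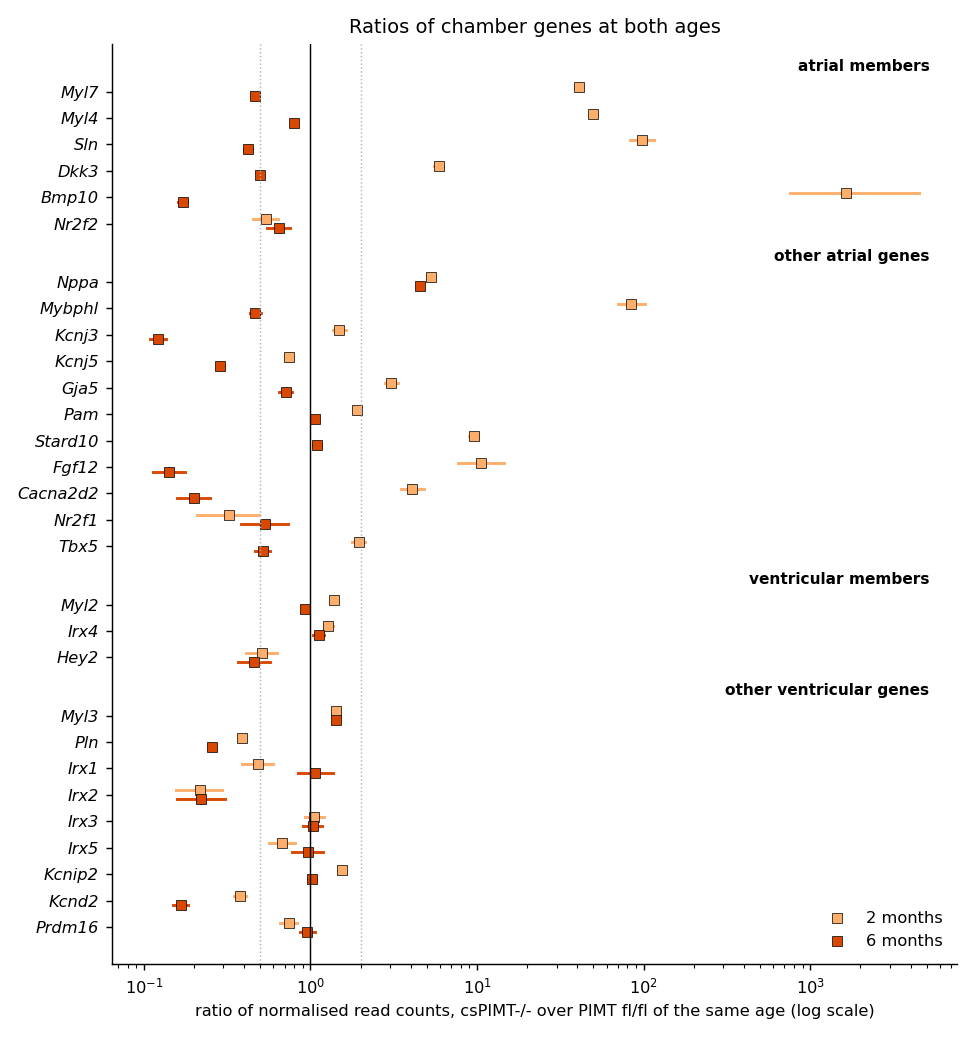
Ratio of normalised read counts of csPIMT-/- over PIMT fl/fl of the same age (log axis), with the 95% counting interval, for the chamber genes and those further chamber genes with at least 10 reads at both ages, and dotted lines at 0.5 and 2. *Myl7*, *Myl4*, *Sln*, *Dkk3*, *Bmp10*, *Mybphl*, *Gja5*, *Fgf12* and *Cacna2d2* lie right of 2 at 2 months and left of 1 at 6 months.

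Quotients of an atrial gene and its ventricular counterpart within a library do not depend on the scaling between libraries. *Myl7* reads were 1.25% (1.18 to 1.32) of *Myl2* reads in the 2-month control, 22.2% (21.8 to 22.5) in the 6-month control, 37.0% (36.5 to 37.5) in 2-month csPIMT-/- and 11.2% (10.9 to 11.5) in 6-month csPIMT-/- hearts. Per kilobase of transcript these were 1.88%, 33.4%, 55.7% and 16.9%. In the 6-month control the regulatory light chain reads were thus mostly ventricular but with a clear atrial share, and in the 2-month control hardly any were atrial.

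For the essential light chains, *Myl4* reads were 1.35% of *Myl3* reads in the 2-month control, 25.9% in the 6-month control, 47.2% in 2-month csPIMT-/- and 14.4% in 6-month csPIMT-/- hearts. The order and nearly the size of the steps matched the regulatory pair. *Pln* encodes phospholamban, the ventricular relative of sarcolipin, and *Sln* reads were 0.124%, 2.70%, 30.9% and 4.44% of *Pln* reads in the same libraries. In this pair the 6-month csPIMT-/- library lay above the 6-month control, unlike in both light chain pairs, and *Pln* itself was lower in csPIMT-/- hearts at both ages. *Pln* was counted at 105003, 147791, 40819 and 37939.

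**Figure D3:**
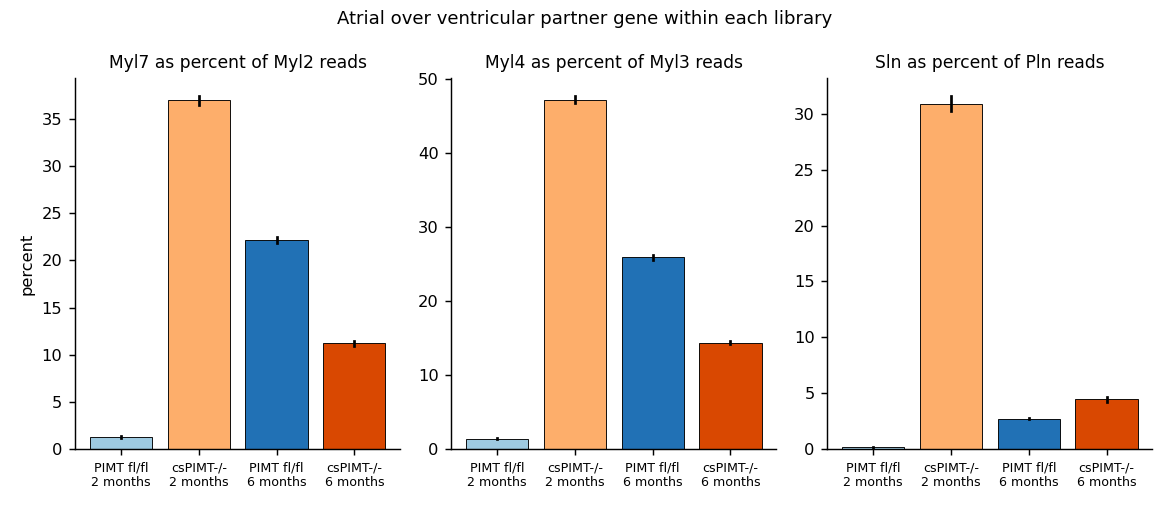
Reads of *Myl7*, *Myl4* and *Sln* as a percent of the reads of *Myl2*, *Myl3* and *Pln* in each library, with 95% counting intervals as black lines and bars starting at 0. The 2-month control stands at 1.25%, 1.35% and 0.124%, and 2-month csPIMT-/- is the highest bar in each panel.

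Ordered by level per kilobase of transcript, *Myl2* was first in every library, from 81205 to 130452 normalised reads per kilobase. In the 2-month control *Myl7* (1772) and *Myl4* (1463) followed it 53.1-fold and more below, then *Irx4* (670) and *Dkk3* (294). *Hey2* (111), *Nr2f2* (101) and *Sln* (98.5) came next and did not differ beyond counting error from their neighbours among these 3, and *Bmp10* (1.16) was last. In the 6-month control the order was *Myl2*, *Myl7* (29321), *Myl4* (24392), *Sln* (3032), *Dkk3* (1624), *Bmp10* (1402), *Irx4* (519), *Hey2* (103) and *Nr2f2* (96.7). There only *Hey2* and *Nr2f2* lay within counting error of each other.

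In 2-month csPIMT-/- hearts *Myl4* (73013) and *Myl7* (72725) were level, with a quotient of 1.004 (0.991 to 1.02), and stood 1.79-fold below *Myl2*. *Sln* (9582), *Bmp10* (1907), *Dkk3* (1731) and *Irx4* (856) followed, and *Hey2* (56.6) and *Nr2f2* (54.6) were again last and within counting error. In 6-month csPIMT-/- hearts *Myl4* (19386) stood 1.41-fold above *Myl7* (13701), and *Bmp10* (240.3) lay below *Irx4* (581). Every atrial gene but *Nr2f2* thus lay above *Irx4* in the 6-month control and in 2-month csPIMT-/- hearts, but only the 2 light chains did in the 2-month control.

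A list of 12 further genes known for atrial expression was set beside these. At 2 months 6 of the 12 lay above 2 and 1 (*Nr2f1*) below 0.5, with a median of 2.50. At 6 months 1 of 11 (*Nppa*) lay above 2 and 5 below 0.5, with a median of 0.516. *Mybphl*, a myosin binding protein of atrial muscle, was counted at 95.2 in the 2-month control, 2329 in the 6-month control, 8011 in 2-month csPIMT-/- and 1090 in 6-month csPIMT-/- hearts, the order of *Myl7*. Its ratios were 84.2 and 0.468 at these ages.

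Ion channel and junction genes of this list were less alike. *Fgf12*, which binds sodium channels, had ratios of 10.5 and 0.142, and *Cacna2d2*, a calcium channel subunit, 4.08 and 0.200. *Gja5*, the gap junction protein connexin 40, had 3.06 and 0.713. The acetylcholine-activated potassium channel genes *Kcnj3* (1.49 and 0.122) and *Kcnj5* (0.748 and 0.288) were both lowest in 6-month csPIMT-/- hearts, at 354 and 2347 normalised reads against 2893 and 8148 in the control of that age.

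*Stard10*, a lipid transfer protein gene, had ratios of 9.56 and 1.10, and *Pam*, whose product amidates peptides in secretory granules, 1.91 and 1.06. Among transcription factors *Tbx5* had 1.95 and 0.516. *Nr2f1*, the closest relative of *Nr2f2*, had 0.325 (0.209 to 0.490) and 0.531 (0.381 to 0.731), lower in csPIMT-/- at both ages as *Nr2f2* was.

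*Nppa*, which encodes atrial natriuretic peptide, had its own order. It was counted at 38182 in the 2-month control, 70659 in the 6-month control, 201180 in 2-month csPIMT-/- and 320296 in 6-month csPIMT-/- hearts. Unlike the 6 atrial genes it was highest in 6-month csPIMT-/- hearts, with ratios of 5.27 (5.21 to 5.32) and 4.53 (4.50 to 4.57). Ventricular muscle is known to make natriuretic peptides under load, and whether load had a part in the *Nppa* levels was not tested. All 4 wall stress genes were higher in both csPIMT-/- libraries than in both controls, as were 34.6% of 15589 genes. *Nppb*, which encodes brain natriuretic peptide, was counted at 14917, 9405, 37044 and 80691, and *Myh7*, the slow myosin heavy chain, at 7204, 6589, 30098 and 310924. Both were highest in 6-month csPIMT-/- hearts, whereas *Acta1*, the skeletal α-actin gene, was highest at 2 months (22823, 24275, 122146 and 94112). *Myh7* had ratios of 4.18 and 47.2. Of the 4, *Nppb*, *Myh7* and *Acta1* (5.35) were above 2 at 2 months and *Ankrd1* at 1.77, and at 6 months all 4 were above 2, with *Acta1* at 3.88, *Ankrd1* at 2.12 and *Nppb* at 8.58.

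Of 10 further ventricular genes, 9 had enough reads. None lay above 2 at either age, and 4 lay below 0.5 at 2 months and 3 at 6 months, with medians of 0.678 and 0.962. *Pln*, *Irx2* and *Kcnd2* were below 0.5 at both ages. *Pln* had ratios of 0.389 and 0.257, *Irx2*, a homeobox gene of the *Irx* cluster, 0.217 and 0.222, and *Kcnd2*, a pore subunit of the transient outward potassium current, 0.376 and 0.166.

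*Irx1* was at 0.482 at 2 months only, with 1.07 at 6 months, and *Irx5* went from 0.678 to 0.962. *Irx3* (1.05 and 1.03) stayed near 1 at both ages. The essential light chain gene *Myl3* had 1.43 at both ages, *Kcnip2*, which encodes the subunit that partners *Kcnd2*, 1.54 and 1.03, and the transcription factor gene *Prdm16* 0.740 and 0.961. *Hand1* held at most 1 read per library. The list thus held genes with ratios below 0.5 at both ages beside others near or above 1 at both, such as *Irx3* and *Myl3*.

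Sarcomere genes common to both chambers differed less. Of 8, 2 lay above 2 at 2 months (*Mybpc3* at 2.03 and *Tcap* at 3.87, the latter named after its value was seen) and none at 6 months. The summed normalised count of these 8 was 81.3% and 75.6% of its highest library in the controls of 2 and 6 months, 100% in 2-month csPIMT-/- and 85.0% in 6-month csPIMT-/- hearts. The same sum over the 6 atrial genes was 2.86%, 40.6%, 100% and 23.1%, and over the 3 ventricular genes 72.4%, 67.3%, 100% and 62.4%.

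Genes of other tissues also differed between the pools and some followed the atrial order. The summed count of 5 fat genes was 0.187% of its highest library in the 2-month control, 23.1% in the 6-month control, 100% in 2-month csPIMT-/- and 14.3% in 6-month csPIMT-/- hearts, which is the order of *Myl7*. *Adipoq* held 6, 515, 1484 and 286 reads, *Plin1* 4, 388, 1286 and 131, and *Cidec* 3, 528, 1686 and 303, while *Lep* and *Retn* were at 0 in the 2-month control. All 5 fat genes lay above 2 at 2 months and 1 (*Plin1*) below 0.5 at 6 months. Their part in the atrial differences was not tested.

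The brown fat gene *Ucp1* held 10, 106, 1432 and 12 reads, and 2 of the 4 brown fat genes (*Ucp1* and *Elovl3*) lay above 2 at 2 months. At 6 months *Ucp1* lay below 0.5 and 1 of the 3 measured (*Cidea*) above 2. Lung genes summed to 46, 28, 1003 and 96 reads, with 6 of 8 at 0 in the 2-month control. Of those with enough reads 4 of 5 lay above 2 at 2 months, all but *Ager*, and 1 of 1 (*Ager*) at 6 months. *Bpifa1*, an airway gene, made up 794 of the 1003. Epicardium genes were 30.6%, 22.3%, 100% and 27.4% of their highest library, with 4 of 5 above 2 and 1 (*Wt1*) below 0.5 at 2 months and none past 2-fold at 6 months. The 2-month csPIMT-/- library was thus the highest in fat, lung and epicardium genes as well as in atrial genes.

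Vascular smooth muscle genes were 79.7%, 57.4%, 100% and 43.8%, with 4 of 5 (all but *Acta2*) above 2 at 2 months and none past 2-fold at 6 months. *Acta2* made up most of that sum. The other 4 were each lowest in the 2-month control and highest in 2-month csPIMT-/- hearts, as *Cnn1* shows with 228, 1138, 2943 and 946 normalised reads, although *Myh11* was nearly level between the 2-month control (3413) and 6-month csPIMT-/- hearts (3415). Their part in the atrial differences was not tested. The 7 pacemaker and conduction genes were highest in the 2-month control, at 100%, 68.7%, 74.7% and 38.1%, with none above 2, and 1 of 6 (*Tbx3*) below 0.5 at 2 months and 2 of 6 at 6 months. They did not share the low level of the working atrial genes in that pool. Skeletal muscle genes were 100%, 24.7%, 32.9% and 96.7%, with 3 of 6 (*Myh4*, *Myh1* and *Myh2*) below 0.5 at 2 months and 6 of 6 above 2 at 6 months. Thymus genes summed to 24, 45, 24 and 78 reads, with 0 of 1 past 2-fold at 2 months and 2 of 3 (*Cd3e* and *Cd8a*) above 2 at 6 months. Of the blood genes *Alas2* held 4428, 3246, 1876 and 11807 reads (0.604 and 4.30), and the 4 globin genes were listed at 0 in every library.

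Sex-linked genes differed too. *Xist* held 930, 29152, 5166 and 12357 reads, and *Ddx3y* 3640, 584, 131 and 201. At 2 months *Xist* lay above 2 and the 4 Y-linked genes below 0.5, and at 6 months 1 of the 5 (*Ddx3y*, at 0.407) lay below 0.5. The 2-month control was thus the pool lowest in *Xist* and highest in *Ddx3y*, and the part of sex in the atrial differences was not tested.

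**Figure D4:**
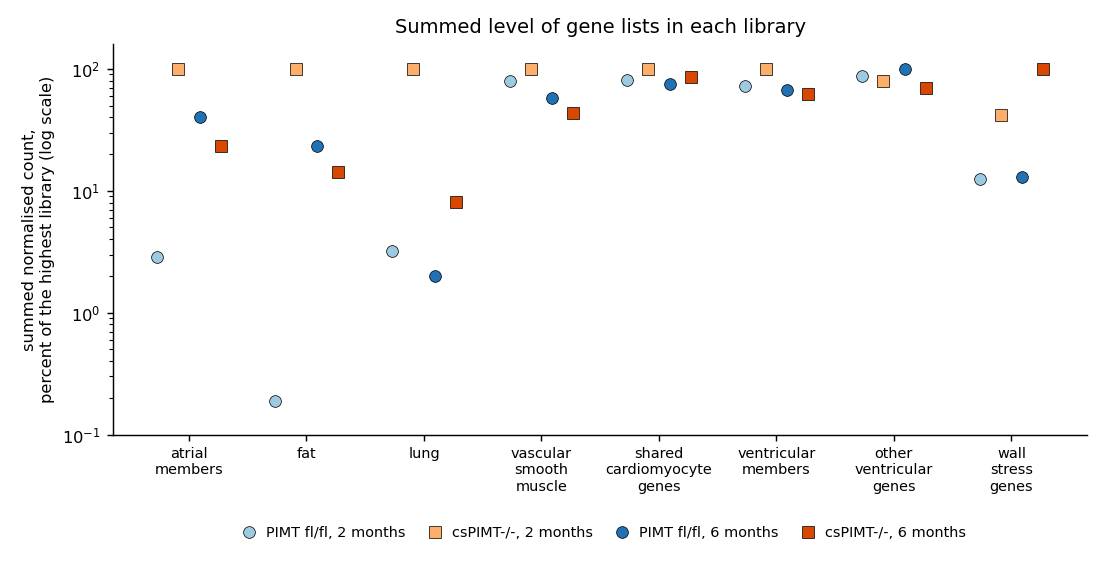
Summed normalised count of gene lists in each library as a percent of the highest library (log axis), with circles for PIMT fl/fl and squares for csPIMT-/-. Atrial and fat genes share the order of the 4 libraries, from 2.86% and 0.187% in the 2-month control to 100% in 2-month csPIMT-/- hearts, while wall stress genes peak in 6-month csPIMT-/- hearts.

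Among 12823 genes with at least 100 reads in 1 library, the 5 whose pattern over the 4 libraries lay nearest that of *Myl7* were *Myl4*, *Scd1*, *Mybphl*, *Retnla* and *Sln*. Likeness was the Euclidean distance of log2(value + 1) centred on each gene's mean, and it was 0.63, 0.66, 0.72, 0.74 and 0.90 log2 units for these genes. *Scd1*, the fatty acid desaturase gene, held 744, 7246, 15001 and 2630 reads and *Retnla*, a resistin-like gene, 10, 206, 243 and 41. So 3 of the 5 were atrial muscle genes and the other two were not. *Dkk3* was at place 42 (1.99), while *Nr2f2* and *Bmp10* lay far off at 9277 and 9846. *Bmp10* had the library order of *Myl7* but a span of 1649.5-fold against 41.0-fold.

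Among the genes nearest *Myl2* were *P4ha1* (0.039), *2210013O21Rik* (0.061), *Zbtb48* (0.063) and *Irgq* (0.069), and *Irx4* was at place 121 (0.22). Like *Myl2*, the genes *P4ha1*, *2210013O21Rik*, *Zbtb48* and *Irgq* were highest in 2-month and lowest in 6-month csPIMT-/- hearts. *P4ha1* was counted at 3154 in the 2-month control, 2897 in the 6-month control, 4360 in 2-month csPIMT-/- and 2630 in 6-month csPIMT-/- hearts. Distances over 4 libraries are small between genes that each vary little. The smallest distances describe these 4 libraries and nothing further.

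Ratios were higher in genes with GC-rich transcripts. Spearman's rho of the log2 ratio and GC content was 0.594 at 2 months, 0.620 at 6 months and -0.270 between the controls, taken across genes, which are not replicates and so carry no p here. With the trend subtracted, the atrial ratios at 2 months were 28.1 for *Myl7*, 33.3 for *Myl4*, 135 for *Sln*, 5.54 for *Dkk3* and 2596 for *Bmp10*, and all 5 stayed above 2. At 6 months they were 0.312, 0.521, 0.605, 0.446 and 0.291, and all 5 stayed below 1. The chamber genes whose ratio changed sides of 1 by this step were *Irx4* at both ages and *Nr2f2* at 6 months.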

How the data were processed

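RNA of 5 hearts was pooled per group and sequenced as 1 directional, single-end library each. The authors trimmed and filtered the reads, used STAR with the mm10 build for alignment, htseq-count (HTSeq 0.6.1p1 in the submitters' processing notes) for gene counts, and DESeq2. They deposited 1 normalised read count per gene symbol and library, a signal in arbitrary units. In 1 table, that of 6-month csPIMT-/- hearts, the header says read counts although the values are normalised. Every value (100%, to within 1e-06 reads) was an integer times the lowest nonzero value of its library, so dividing by that value gave whole reads. The strand setting of the counting is not given in the sources used here, so reads of overlapping antisense genes or of near-identical copies could be misplaced.

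The chamber genes and all gene lists were chosen with earlier results of these data known. Ratios used the deposited scale, with Clopper-Pearson 95% intervals, and required 10 or more reads in either library. Values named in the text are those of the 9 chamber genes, *Tgs1*, and the further atrial, ventricular and wall stress genes. The 5 nearest patterns to *Myl7* and *Myl2*, and at most 4 genes with the most reads of any other list, are named too. The exceptions *Tcap*, *Lep* and *Myh2* were named after their values were seen. Some genes these rules cover are not reported here. Chamber genes had no p-value. A fit over all 4 libraries, with genotype and age in limma 3.58.1 on log2(value + 1) and 1 residual degree of freedom, was used only for a count. It called 4250 of 14933 genes at a Benjamini-Hochberg adjusted p of 0.05, while edgeR 4.0.16 on the recovered reads called 4240 and DESeq2 1.42.0 called 5200. Whether replicate libraries would vary as the fit assumes was not tested. Coordinates, transcript lengths and GC content came from GENCODE M21 (GRCm38), using the longest coding transcript of each symbol, and GC trends were lowess fits (span 0.3). Of these fits only that of limma was tried on simulated data, which held no GC trend. Those of edgeR and DESeq2 were not. Alternatives were TMM factors, size factors of 2 libraries, total reads, cardiomyocyte genes as the scale, GC subtraction, the other control, the mean of both controls and a pseudocount. Sequencing batch is not given in the sources used here.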

Additional observations from a re-analysis of the deposited data

Results flagged for a closer look

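The difference between the ages was marked for a closer look in 12 of 35 chamber and wall stress genes, where the ratios of csPIMT-/- over the control at the 2 ages lay on opposite sides of 1, in either order, with both counting intervals clear of 1. In each of the 12 it lay above 1 at 2 months and below 1 at 6 months. The difference was not tested in any of them, since each group was 1 pool. The share of all genes meeting this rule was not counted, so nothing is read from the number marked. Among the 9 chamber genes there were 6. The log2 ratio at 6 months minus that at 2 months was -6.46 for *Myl7*, -5.97 for *Myl4*, -7.85 for *Sln*, -3.56 for *Dkk3* and -13.23 for *Bmp10*, against -0.58 for the ventricular *Myl2*. Among the further atrial genes it was -7.49 for *Mybphl*, -6.21 for *Fgf12*, -4.35 for *Cacna2d2*, -3.61 for *Kcnj3*, -2.1 for *Gja5* and -1.92 for *Tbx5*. All of these genes but *Myl2* belong to the atrial genes. The 12 genes share the same 4 libraries, so they are not separate observations, and those chosen here were picked with their values known.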

How the results depend on the processing

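Ratios of the chamber genes (9 genes at 2 ages, 18 ratios) kept their direction in 18 with TMM factors, size factors of 2 libraries, total reads and a pseudocount of 0.5 reads, in 17 scaled on cardiomyocyte genes, in 16 with the mean of both controls, in 15 with the GC trend subtracted and in 12 with the control of the other age. With that control the 6-month ratios turned to 7.73 for *Myl7*, 13.3 for *Myl4*, 13.0 for *Sln*, 2.75 for *Dkk3* and 208 for *Bmp10*. The number of atrial genes above 2 then was 3 at 2 months and 5 at 6 months, with 0 below 0.5 at 6 months, and 1 was below 0.5 at 6 months with the mean of both controls. At 2 months 1 atrial gene (*Nr2f2*) was below 0.5 when scaled on cardiomyocyte genes, and 1 ventricular gene (*Hey2*) when scaled on those or on total reads. At 6 months 0 ventricular genes were below 0.5 with the GC trend subtracted. The cause of these differences, and of those that follow, was not tested.

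The median of the further atrial genes was 2.03 on cardiomyocyte genes and 1.29 with the other control at 2 months, and 0.315 with the GC trend subtracted and 1.47 with the other control at 6 months. That of the further ventricular genes was 0.551 and 1.07 at 2 months, and 0.614 and 0.510 at 6 months, under the same settings. Genes above 2 at 2 months fell from 2616 to 1724 with a minimum of 100 reads, which also left fewer genes to count. With the GC trend subtracted, 1537 of 13748 genes with known GC content were below 0.5 at 2 months, in place of 3405 of 15152. At 6 months these were 1763 of 13787, in place of 3794 of 15218. The limma fit then called 0 genes lower and 0 higher in place of 2606 and 1644, with 3244 of 13542 genes at an unadjusted p under 0.05 (edgeR and DESeq2 were not run with the trend subtracted). Per kilobase, *Myl7* was 1.88%, 33.4%, 55.7% and 16.9% of *Myl2* in the 2-month control, the 6-month control, 2-month and 6-month csPIMT-/- libraries. No paired analysis was possible because each group was 1 library with no replicate number to pair by, while the fits over all 4 libraries held age as a term. Depth limited the 2-month ratio of *Bmp10*, with 6 control reads.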
